A study of Mus musculus with 7 samples.

Results

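Interferon response genes were examined in follicular dendritic cells (FDCs), the stromal cells that hold antigen in the B-cell follicles of lymph nodes. The set holds 44 genes, chosen by symbol as receptors, regulators and targets of interferons, out of 21176 genes in the table, and all 44 were found there. FDCs had been sorted on a flow cytometer, and the popliteal nodes they came from belonged to male mice aged 8 to 12 weeks that had not been immunized. The groups were wild-type mice (WT, 4 samples) and Ngfr knockout mice (Ngfr KO, 3 samples), Ngfr being a neurotrophin receptor gene that FDCs express. Nodes of several animals were pooled for each sample, so each value is an average over a pool. The design asks what differs in these cells when Ngfr is lost. How the Ngfr allele was disrupted, and in which cells, is not given in the sources used here.

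Interferons are secreted alarm signals. Type I interferons bind the receptor chains Ifnar1 and Ifnar2 and lead, through the kinases Jak1 and Tyk2, to a complex holding Stat2 and Irf9 that binds the interferon-stimulated response element (ISRE). Interferon gamma binds Ifngr1 and Ifngr2 and acts through Jak1 and Jak2 on the gamma-activated site (GAS). The induced genes include sensors of viral RNA, proteins that block translation or membrane fusion, and large GTPases that attack the vacuoles of intracellular microbes. Most nucleated cells carry both receptors.

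All values are read counts scaled by 1 factor per sample (TMM, trimmed mean of M values) and are not divided by gene length. Depth per library was 17244925 to 18873542 reads for WT and, for Ngfr KO, 20741770 to 21538400. A value of 1 was worth 230.1 to 294.8 reads. Ngfr itself had values of 0.377, 0.677, 1.295 and 1.14 in WT replicates 1 to 4 and 0.305, 0.353 and 0.184 in Ngfr KO replicates 1 to 3, so reads remained in the knockout and the lowest WT sample lay close to the highest Ngfr KO sample. Ngfr was under the filter on low values used below and was added to the fit, where its log2 change was -0.52 (SE 0.18; by limma, adjusted p = 0.0431). It was called in only 1 of 12 alternatives. The FDC label was checked on 15 marker genes, of which 14 were higher in Ngfr KO. Their values added up to 1841 to 5158 per WT sample and 8032 to 10550 per Ngfr KO sample. Blood endothelial markers went the other way: 11 of 11 tested were lower, with sums of 123.8 to 169.4 (WT) and 27.8 to 50.9 (Ngfr KO). Reticular stroma markers summed to 76.9 to 153.8 and 243.5 to 350.1. In such sorted bulk samples, fewer cells of a type and less RNA per cell cannot be told apart, and the part of these shifts in the results below was not tested.

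Where an interferon signal would be read in the DNA is shown first, for some of the members whose values are described in most detail. RefSeq's promoter table (GRCm38.p6) held 34 of the 44 genes. Usp18, Parp14, Zbp1 and Rtp4 were among those it lacked, so their promoters were not searched. The 250 bases before each start were searched on both strands for the ISRE core, which is GAAA and GAAA with 2 bases of any kind between (TTTC and TTTC on the other strand), and for the GAS core TTCNNNGAA, which is its own reverse complement. The ISRE core was present in 14 of the 34 members (41.2%), against 3.46% of all 27025 genes of the table. The GAS core was present in 9 members (26.5%), against 8.13% of all genes. Both cores were present in Bst2, Gbp7, Igtp and Oas1a, and in Bst2 they overlap. The windows below run 5′ to 3′ towards the start and end before the first annotated exon base, with matches in capitals. They show a member called higher that holds both cores (Igtp), 2 members that spread widely among Ngfr KO samples and hold only the ISRE core (Gbp3, with 2 overlapping matches, and Ifitm2), and the member with the largest limma log2 change among those tested, whose window holds neither (Ifngr1).

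Igtp, chr11:58199306-58199555, plus strand: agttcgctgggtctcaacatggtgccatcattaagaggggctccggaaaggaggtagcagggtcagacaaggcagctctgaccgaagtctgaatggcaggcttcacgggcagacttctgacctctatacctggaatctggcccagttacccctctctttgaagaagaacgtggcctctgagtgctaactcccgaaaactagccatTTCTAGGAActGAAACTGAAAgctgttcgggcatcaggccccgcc
Gbp3, chr3:142559794-142560025, plus strand: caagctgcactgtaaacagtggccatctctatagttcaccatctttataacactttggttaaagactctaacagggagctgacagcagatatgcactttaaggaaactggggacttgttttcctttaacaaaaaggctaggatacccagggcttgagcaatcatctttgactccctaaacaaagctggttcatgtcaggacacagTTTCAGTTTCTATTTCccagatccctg
Ifitm2, chr7:140955988-140956211, minus strand: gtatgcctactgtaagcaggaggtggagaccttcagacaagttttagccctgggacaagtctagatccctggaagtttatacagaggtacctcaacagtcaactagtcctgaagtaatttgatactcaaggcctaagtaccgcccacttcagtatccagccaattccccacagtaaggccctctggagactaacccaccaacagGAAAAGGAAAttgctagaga
Ifngr1, chr10:19591699-19591948, plus strand: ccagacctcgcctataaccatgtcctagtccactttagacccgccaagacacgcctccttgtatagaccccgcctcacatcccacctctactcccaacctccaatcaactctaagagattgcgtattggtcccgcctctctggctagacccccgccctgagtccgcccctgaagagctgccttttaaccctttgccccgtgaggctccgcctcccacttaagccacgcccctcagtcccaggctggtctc

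A match says that the letters are there, not that a factor binds. Neither core was found in the searched windows of Ifngr2, Ifitm1, Ifitm3 or Ifi44.

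Ngfr KO was compared with WT by limma on log2(value + 1) over all 8326 genes that reached a value of 1 in 3 or more samples. Of the 44 members, 33 passed that filter and 11 did not. A gene was called when its Benjamini-Hochberg adjusted p was under 0.05. Called members were 6 of 33. Ifngr1, Ifngr2, Usp18, Igtp and Ifitm1 were higher in Ngfr KO and Parp14 was lower. Across all genes tested 34.2% were called, 18.3% higher and 15.8% lower, so the members' 5 higher and 1 lower were not above the background. edgeR's quasi-likelihood test on the recovered reads could test 43 members and called 5 higher and 1 lower, beside 8.67% and 6.55% of its 16751 genes. The median log2 change of the 33 members was -0.14, beside 0.02 over all genes tested. Members above 0 numbered 15 and members below 0 numbered 18. The members' median turned positive, at 0.11, without Ngfr KO replicate 2, and to 0.03 without WT replicate 3. Groups that did not overlap were found in 6 of the 33 members, against 40.9% of all genes tested.

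**Figure D1:**
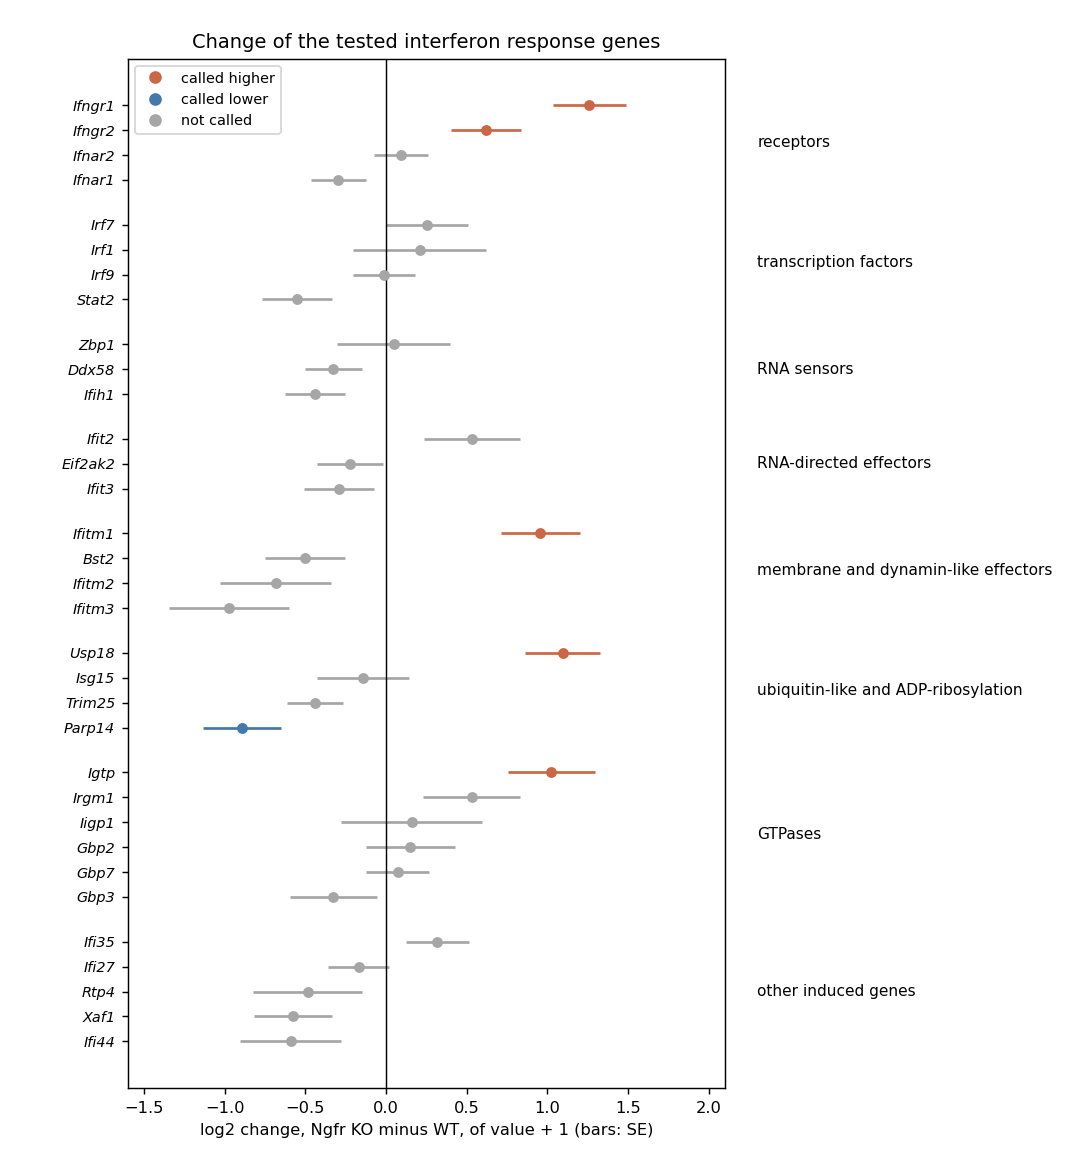
Log2 change (x axis, Ngfr KO minus WT, on the log2(value + 1) scale) of the 33 tested interferon response genes, grouped by role, with bars for the SE. The 2 interferon gamma receptor genes, Usp18, Igtp and Ifitm1 are called higher, Parp14 is called lower, and the other 27 are not called.

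Both interferon gamma receptor genes were called higher, and neither type I receptor gene was called. Ifngr1 (ENSMUSG00000020009, chromosome 10, 19591949 to 19610229, plus strand, GRCm38), the ligand-binding chain of the interferon gamma receptor, had values of 18.5, 26.6, 30.7 and 21.7 in WT and 54.2, 75.8 and 49.4 in Ngfr KO. Every Ngfr KO sample lay above every WT sample. The means were 24.4 ± 5.37 (SD, n = 4) and 59.8 ± 14.1 (SD, n = 3). Its log2 change was 1.26 (SE 0.23; by limma, adjusted p = 0.00198). It was called under each of 12 alternatives. Ifngr2 (ENSMUSG00000022965, chromosome 16, 91547072 to 91565623, plus strand), its signal-transducing partner, had values of 6.45, 7.35, 12.0 and 11.6 in WT and 13.1, 15.5 and 14.8 in Ngfr KO. No values overlapped, but 2 WT samples came near the lowest Ngfr KO sample. Its log2 change was 0.62 (SE 0.22; by limma, adjusted p = 0.0432). That call was near the threshold: it was lost in edgeR on the recovered reads (adjusted p = 0.0817), without a filter (0.110) and in 5 of the 7 fits that left out 1 library, with adjusted p up to 0.124.

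Ifnar1 had values of 3.63, 2.88, 2.099 and 2.90 in WT and 2.55, 2.07 and 1.81 in Ngfr KO (log2 change -0.30 with SE 0.17, limma adjusted p = 0.189). Ifnar2 had 22.1, 18.6, 21.4 and 20.9 in WT and 20.5, 21.7 and 24.5 in Ngfr KO (log2 change 0.09 with SE 0.17, limma adjusted p = 0.685). The groups overlapped in both. Whether the change of the gamma receptor genes differs from that of the type I receptor genes was not tested. Per kilobase of exon, the mean over all samples was highest for Ifngr1 at 13.9, followed by Ifnar2 at 6.42, Ifngr2 at 3.06 and Ifnar1 at 0.432.

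**Figure D2:**
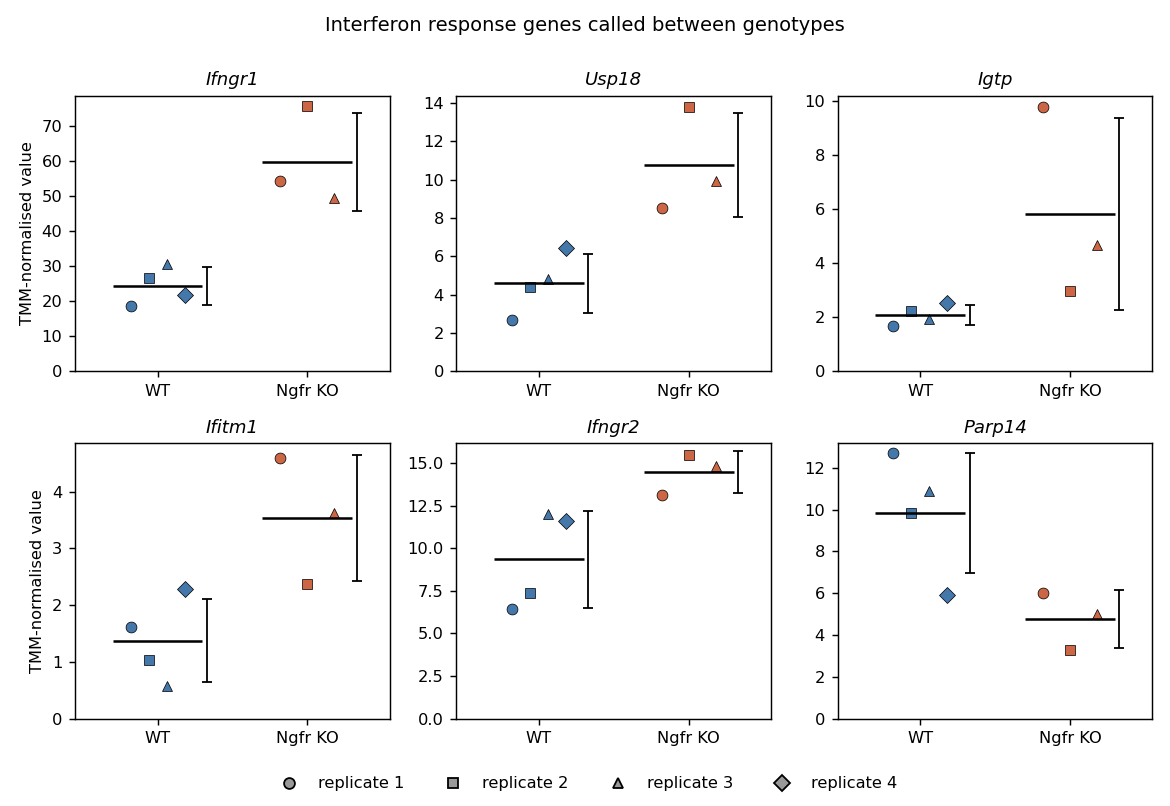
TMM-normalised value (y axis, from 0) of the 6 called interferon response genes in each WT and Ngfr KO sample. Symbols stand for replicate numbers, horizontal lines for group means and bars for the SD; in Ngfr KO, Igtp runs from 2.95 to 9.79, and Parp14 is the gene of the 6 whose groups overlap.

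Usp18 (ENSMUSG00000030107, chromosome 6, 121245906 to 121270917, plus strand) encodes a protease that removes Isg15 from proteins and damps signalling at the type I receptor. Its values were 2.69, 4.41, 4.81 and 6.44 in WT and 8.55, 13.8 and 9.95 in Ngfr KO. The groups were apart. Means were 4.59 ± 1.54 (SD, n = 4) and 10.8 ± 2.74 (SD, n = 3), with a log2 change of 1.09 (SE 0.23; by limma, adjusted p = 0.00478), and the call held under each of the 12 alternatives. Isg15, the ubiquitin-like protein that Usp18 removes, had 0.681, 0.737, 1.93 and 1.04 in WT and 1.04, 0.0916 and 1.85 in Ngfr KO. The groups overlapped, and Ngfr KO replicate 2 held only 27 reads (log2 change -0.14 with SE 0.29, limma adjusted p = 0.717). Trim25, a ubiquitin ligase that acts on the RNA sensor encoded by Ddx58, had a log2 change of -0.44 (SE 0.17) and was not called (limma adjusted p = 0.0639). With the replicate number as a block and without WT replicate 4, Trim25 was called lower.

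Parp14 (ENSMUSG00000034422, chromosome 16, 35832874 to 35871544, minus strand), an ADP-ribosyltransferase, was the only member called lower in the main fit over all samples. It had 12.7, 9.85, 10.9 and 5.90 in WT and 6.01, 3.28 and 5.001 in Ngfr KO. WT replicate 4 lay just below Ngfr KO replicate 1, so the groups overlapped by that pair. The log2 change was -0.90 (SE 0.24; by limma, adjusted p = 0.0152). The call was lost without Ngfr KO replicate 2 (limma adjusted p = 0.0771) and without a filter (0.0685).

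The transcription factors were not called in the main limma fit or in edgeR. Of the 4, 1 had an unadjusted limma p under 0.05 and 0 an unadjusted edgeR p under 0.05. Irf1, an early target of interferon gamma, had 8.24, 7.67, 33.9 and 6.78 in WT and 13.9, 12.0 and 13.3 in Ngfr KO. WT replicate 3 stood alone above all other samples, and the other WT samples lay below every Ngfr KO sample. The log2 change was 0.21 (SE 0.41; by limma, adjusted p = 0.715), and without WT replicate 3 it was 0.72 (limma adjusted p = 0.00820). Irf9, the DNA-binding partner of Stat2, had 4.24, 2.57, 3.52 and 2.48 in WT and 3.97, 2.35 and 3.18 in Ngfr KO, with a log2 change of -0.01 (SE 0.19; by limma, adjusted p = 0.969). Stat2 had 3.27, 2.197, 2.06 and 1.62 in WT and 1.99, 0.624 and 1.21 in Ngfr KO, and its log2 change of -0.55 (SE 0.22) had a limma adjusted p of 0.0674. Stat2 was called lower with the replicate number as a block, without WT replicate 4 and without Ngfr KO replicate 1. Irf7, which amplifies type I interferon production, reached 3.91 in Ngfr KO replicate 1 and lay between 1.12 and 1.72 in the other 6 samples. Irf7 overlaps Phrf1 on the opposite strand and Irf9 overlaps Rnf31 on the same strand, and it is not stated how reads in such overlaps were counted.

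Of the RNA sensors 3 of 4 passed the filter and of the RNA-directed effectors 3 of 10, and limma called none of these 6 (1 had an unadjusted p under 0.05), while edgeR called 1 of 13 it tested. Ddx58, which encodes RIG-I, had 6.31, 4.84, 3.74 and 3.87 in WT and 3.86, 3.30 and 3.27 in Ngfr KO, with overlapping groups (log2 change -0.33 with SE 0.18, limma adjusted p = 0.169). Ifih1, which encodes MDA5, had a log2 change of -0.44 with SE 0.18 (by limma, adjusted p = 0.07997). Without WT replicate 3, Ifih1 was called lower. Zbp1, a sensor of left-handed nucleic acids, is described with the members of wide spread. Eif2ak2, the kinase PKR that stops translation on double-stranded RNA, had 3.95, 2.94, 2.69 and 1.77 in WT and 2.26, 1.67 and 2.81 in Ngfr KO (log2 change -0.22 with SE 0.20, limma adjusted p = 0.404). Ifit2, one of the proteins that bind viral RNA ends and the translation machinery, had 1.53, 1.02, 0.887 and 0.320 in WT and 3.59, 0.651 and 1.69 in Ngfr KO (log2 change 0.53 with SE 0.30, limma adjusted p = 0.181). Ngfr KO samples lay above and within the WT range of Ifit2, and without Ngfr KO replicate 2 it was called higher (log2 change 0.90; limma adjusted p = 0.0395).

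The filter left out Dhx58, Ifit1, Oas1a, Oas2, Oas3, Oasl1, Oasl2, Isg20, Mx1, Mx2 and Rsad2. In edgeR's test, which called 15.2% of its genes in either direction, Oasl2 was the only one of these called. Oasl2, a 2′-5′ oligoadenylate synthetase-like gene, was covered by 159, 131, 81 and 94 reads in WT and by 816, 291 and 337 reads in Ngfr KO. Every Ngfr KO sample lay above every WT sample, and edgeR gave a log2 change of 2.02 (adjusted p = 0.0105). Its relative Oas2 had 0 to 30 reads (WT) and 0 to 4 (Ngfr KO), while Oas3 had 2 to 28 and 3 to 5, so differences in them were not detectable at this depth. Rsad2, which encodes viperin, was covered by 102 reads in Ngfr KO replicate 1, 0 in replicate 2, 40 in replicate 3 and at most 19 in WT. Mx1, a dynamin-like antiviral protein, ranged from 98 to 181 reads in 6 samples, with 11 in WT replicate 3. Paralogs of the Oas and Ifit families share sequence, and reads of Oas1a and Ifit3 may have been split with their near copies Oas1g and Ifit3b.

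The interferon-induced transmembrane proteins, which hinder virus entry at membranes, lie together on chromosome 7. Of the 3 members among them, only Ifitm1 was called, and whether their changes differ was not tested. Ifitm1 (ENSMUSG00000025491, chromosome 7, 140967221 to 140969825, plus strand) had 1.61, 1.03, 0.578 and 2.28 in WT and 4.60, 2.38 and 3.62 in Ngfr KO. Here too the groups were separate, though WT replicate 4 came close to Ngfr KO replicate 2. The log2 change was 0.96 (SE 0.24; by limma, adjusted p = 0.0114), and the call was lost without a filter (0.0666) and without Ngfr KO replicate 1 (0.0516). Ifitm3 was the most abundant member per kilobase, at 411, ahead of Ifitm2 at 78.1 and Bst2 at 21.3, against 2.103 for Ifitm1. Its values were 412, 296, 394 and 271 in WT and 225, 83.6 and 269 in Ngfr KO. The highest Ngfr KO sample all but reached the lowest WT sample. Its log2 change of -0.97 (SE 0.37) was not called (limma adjusted p = 0.0601). It was -0.46 without Ngfr KO replicate 2 and, called, -1.30 without replicate 3 (limma adjusted p = 0.0221). Ifitm2 had 74.3, 58.8, 56.0 and 45.5 in WT and 27.2, 22.1 and 74.0 in Ngfr KO, where replicate 3 was as high as the top WT sample (log2 change -0.69 with SE 0.35, limma adjusted p = 0.140). Without replicate 3 the Ifitm2 change was -1.20 and called (limma adjusted p = 0.00429), and without replicate 2 it was -0.35. Bst2, which tethers budding virus, had a log2 change of -0.50 (SE 0.25; by limma, adjusted p = 0.127). Blood endothelial marker sums were 169.4, 127.8, 147.9 and 123.8 in WT replicates 1 to 4, where Ifitm3 was 412, 296, 394 and 271, in the same order. In Ngfr KO replicates 1 to 3 the sums were 49.1, 50.9 and 27.8, where Ifitm3 was 225, 83.6 and 269, in another order. The part of those cells in the Ifitm values was not tested.

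Of the GTPases, Igtp (ENSMUSG00000078853, chromosome 11, 58199556 to 58207591, plus strand), an immunity-related GTPase also called Irgm3, was called. Its values were 1.67, 2.22, 1.93 and 2.51 in WT and 9.79, 2.95 and 4.68 in Ngfr KO. The groups were apart, and replicate 1 was by far the highest Ngfr KO sample. The log2 change was 1.02 (SE 0.27; by limma, adjusted p = 0.0136), and without a filter it was not called (0.0752). Without Ngfr KO replicate 1 the change was 0.63 and still called (limma adjusted p = 0.0469). Igtp overlaps its neighbour Irgm2 on the same strand, so reads of the pair may have been shared; Irgm2 was not called (log2 change 0.19 with SE 0.28, limma adjusted p = 0.616). Irgm1, a regulator of these GTPases, had 4.40, 4.76, 12.0 and 4.58 in WT and 12.9, 7.67 and 7.18 in Ngfr KO. In Irf1 WT replicate 3 lay above the whole Ngfr KO range, and in Irgm1 it was the only WT sample within that range. The log2 change was 0.53 (SE 0.30; by limma, adjusted p = 0.183), and 0.84 without that sample (0.0135). Gbp7, a guanylate-binding protein, had a log2 change of 0.07 (SE 0.19; by limma, adjusted p = 0.793).

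WT replicate 3 also stood apart in B-cell markers, whose summed value was 197.8 there and 30.15 to 46.1 in the other WT samples, mostly through the immunoglobulin gene Igkc (179.7). In the Ngfr KO samples the B-cell sums were 44.2, 69.97 and 21.8, with Irf1 at 13.9, 12.0 and 13.3. The part of this in the values of WT replicate 3 was not tested.

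The remaining induced genes were not called by either test; 1 of the 5 had an unadjusted limma p under 0.05 and 0 an unadjusted edgeR p under 0.05. Ifi27, a mitochondrial protein, had 28.1, 22.7, 25.7 and 24.8 in WT and 20.6, 19.3 and 27.9 in Ngfr KO (log2 change -0.17 with SE 0.19, limma adjusted p = 0.492). Ifi35 had 5.29, 6.18, 6.40 and 4.37 in WT and 9.13, 7.32 and 5.34 in Ngfr KO (log2 change 0.32 with SE 0.19, limma adjusted p = 0.212). Xaf1, a promoter of apoptosis, had a log2 change of -0.57 with SE 0.24 (by limma, adjusted p = 0.0817). With the replicate number as a block, Xaf1 was called lower.

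The members spread more between Ngfr KO samples than genes did in general. The SD of log2(value + 1) over the Ngfr KO samples exceeded that over the WT samples in 23 of the 33 members (69.7%), beside 44.3% of all genes tested. The median SD was 0.29 in WT and 0.42 in Ngfr KO for the members, beside 0.21 and 0.19 for all genes. The spread had an order. Ngfr KO replicate 1 was the highest of the 3 in 21 members (63.6%), beside 26.1% of all genes, and replicate 2 was the lowest in 23 members (69.7%), beside 37.7%. Both held at once in 15 members (45.5%), beside 12.7% of all genes. WT samples had an order too: WT replicate 1 was the highest WT sample in 16 members (48.5%), beside 25.6% of all genes. WT replicate 4 was the lowest in 16 (48.5%), beside 30.0%. Among the Ngfr KO samples again, the position against WT was as follows. Ngfr KO replicate 2 lay below every WT sample in 21 members (63.6% beside 36.1%), and Ngfr KO replicate 1 lay above every WT sample in 15 (45.5% beside 34.5%). Without Ngfr KO replicate 2 the median difference in SD, Ngfr KO minus WT, went from 0.15 to -0.03, and without Ngfr KO replicate 1 to 0.02. These genes are not independent of each other, and the set was described with this spread known.

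**Figure D3:**
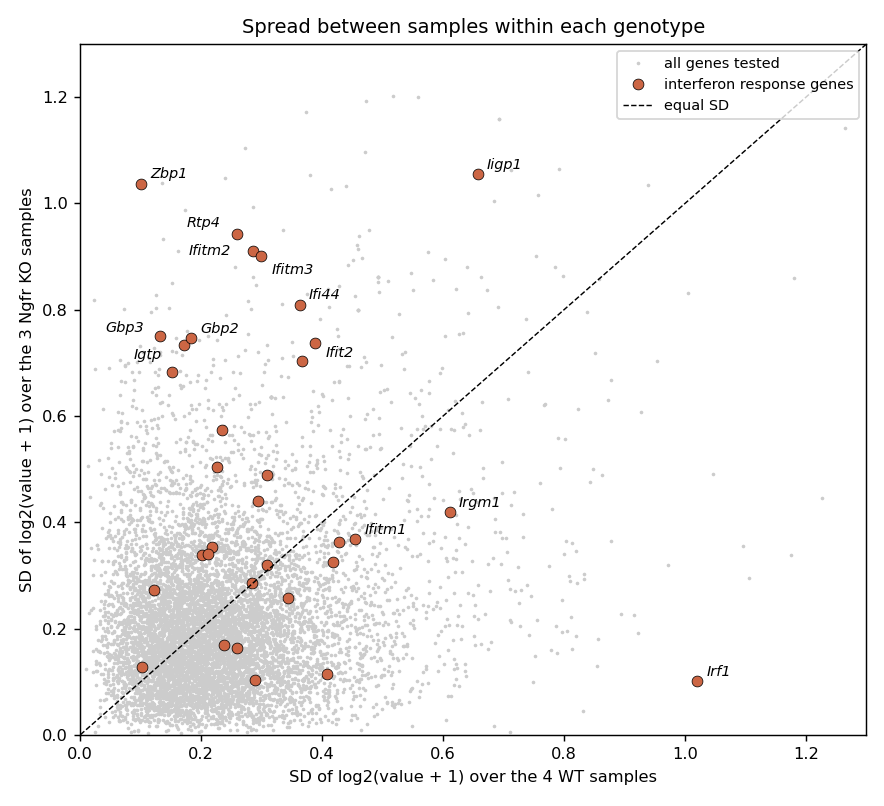
SD of log2(value + 1) over the WT samples (x axis) and over the Ngfr KO samples (y axis) for the 33 tested interferon response genes (filled circles) and all genes tested (grey points, 20 of which lie outside the axes). The dashed line marks equal SD; 23 of the 33 members lie above it, with Zbp1 and Iigp1 highest, and Irf1 lies far to the right.

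Zbp1 had 2.97, 2.42, 2.92 and 2.62 in WT and 6.43, 0.787 and 3.29 in Ngfr KO. The WT samples were within 1.23-fold of each other while the Ngfr KO samples ran over 8.18-fold, with replicate 1 above and replicate 2 below the whole WT range. The mean difference was close to none (log2 change 0.05 with SE 0.35, limma adjusted p = 0.928). Iigp1, an immunity-related GTPase that coats the vacuoles of parasites, had 15.9, 14.4, 35.3 and 11.9 in WT and 35.4, 8.12 and 26.4 in Ngfr KO (log2 change 0.16 with SE 0.44, limma adjusted p = 0.795). WT replicate 3 and Ngfr KO replicates 1 and 3 formed the upper part of its range.

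Rtp4, a chaperone of membrane receptors, had 5.53, 4.43, 6.42 and 3.98 in WT and 5.83, 1.03 and 4.69 in Ngfr KO, so that replicate 2 alone was low. Ifi44 had 6.46, 3.69, 3.79 and 3.23 in WT and 5.20, 1.03 and 2.19 in Ngfr KO. Gbp2, a guanylate-binding protein, had 3.18, 2.197, 2.29 and 2.25 in WT and 5.95, 1.73 and 1.97 in Ngfr KO. In Gbp2 replicate 1 alone was high. Gbp3 had 2.12, 1.94, 1.62 and 2.22 in WT and 3.30, 0.851 and 0.661 in Ngfr KO, with replicate 1 above and the other two below WT. None of these was called, with limma adjusted p of 0.274 for Rtp4, 0.159 for Ifi44, 0.690 for Gbp2 and 0.362 for Gbp3. Single Ngfr KO libraries decided several of these values. Without replicate 1, Gbp3 was called lower (log2 change -0.76; limma adjusted p = 0.0121), and so was Ifi44 (-1.02; limma adjusted p = 0.0163). Without replicate 2 the change of Ifi44 was -0.22.

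**Figure D4:**
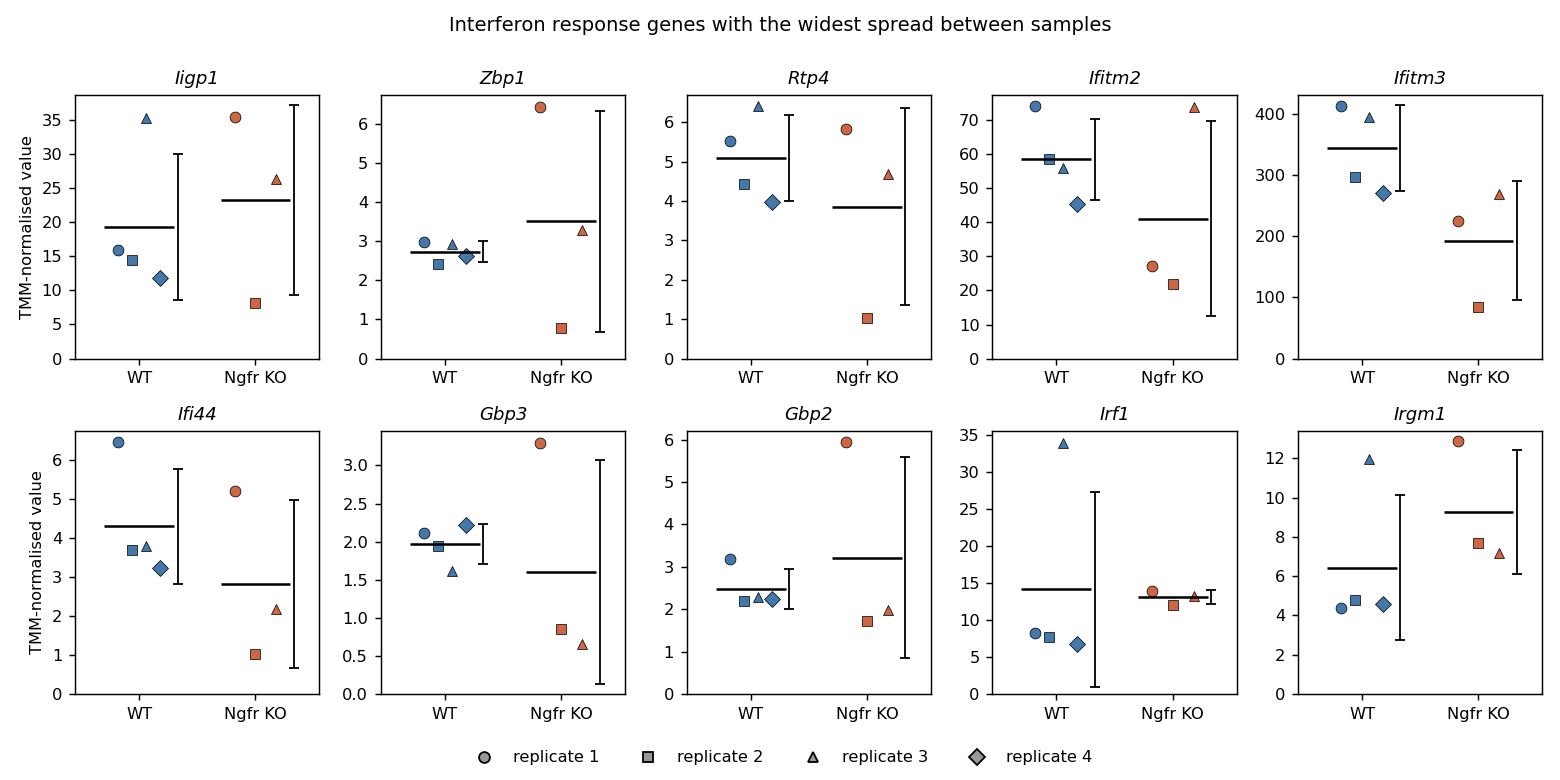
TMM-normalised value (y axis, from 0) in each sample for the 8 tested members with the largest SD over the Ngfr KO samples, followed by Irf1 and Irgm1. Lines are group means and bars the SD; Ngfr KO replicate 2 (square) is the lowest or middle Ngfr KO sample in these 8, and WT replicate 3 (triangle) is the highest WT sample in Irf1, Irgm1 and Iigp1.

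**Figure D5:**
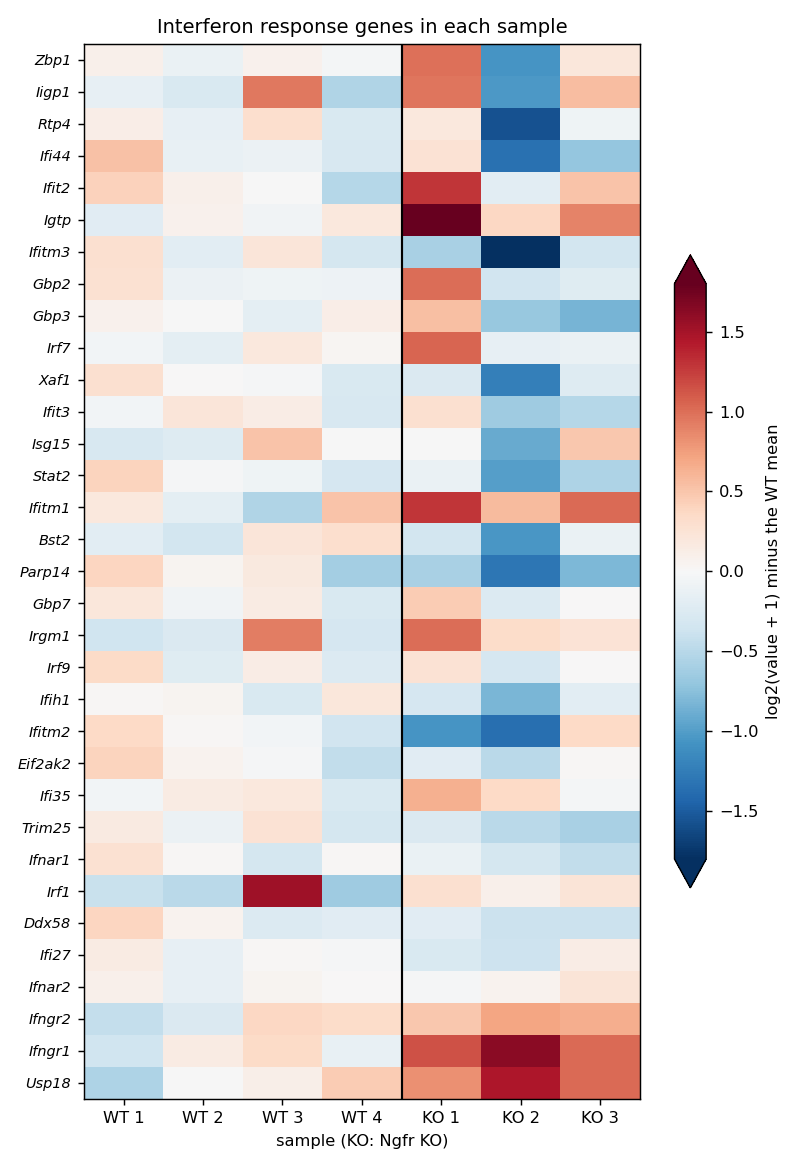
Log2(value + 1) minus the WT mean (colour) for the 33 tested members (rows, ordered by Ngfr KO replicate 1 minus replicate 2) in the 7 samples (columns). Ngfr KO replicate 1 is highest of the 3 in 21 rows and replicate 2 lowest in 23, while Ifngr1 and Usp18 at the foot are highest in replicate 2.

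Replicate 2 was instead the highest Ngfr KO sample for Ifngr1, Ifngr2 and Usp18. Reticular stroma marker sums had the members' most frequent order, at 350.1, 243.5 and 324.4 in Ngfr KO replicates 1 to 3. That was mostly through Dcn, at 248.0, 151.1 and 194.7. Lum, Col1a2 and Col3a1 had the order of Dcn, while Ccl19 (65.8, 66.6 and 100.1), Il7, Pdgfra, Pdgfrb and Col1a1 did not. Other marker sums had other orders: lymphatic endothelial sums were 57.75, 42.4 and 25.5, and blood endothelial sums 49.1, 50.9 and 27.8. T-cell marker sums were 17.6, 12.8 and 8.52 in Ngfr KO replicates 1 to 3, with 0 of 8 tested called, B-cell sums were 44.2, 69.97 and 21.8, with 1 of 7 called higher, and macrophage and myeloid sums were 33.3, 29.5 and 57.4. Over all samples the T-cell sums were 4.94 to 17.4 (WT) and 8.52 to 17.6 (Ngfr KO), and the myeloid sums 23.7 to 27.1 and 29.5 to 57.4, with 2 of 4 tested markers called higher and 1 lower. Plasmacytoid dendritic cells are the main producers of type I interferon, and the sums of their 7 markers in the table were 14.6, 16.9 and 21.7 in these 3 samples, against 16.4 to 23.15 in WT. These sums were mostly Tcf4, Spib and Ly6d, the 3 tested, of which 0 were called higher and Tcf4 was called lower. Siglech, which was too low to be tested by limma, reached 1.05 in replicate 3 and at most 0.163 in any other sample. Pacsin1, also too low, was at most 0.0973 in WT and 0.200 to 0.468 in Ngfr KO, but edgeR did not call it (adjusted p = 0.0582). In Runx2 and Ccr9, low as well, the groups overlapped. The number of genes above 0 was 19470, 18785 and 18624. The part of cell mixture in the spread was not tested.

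Other genes of the pathway were read from a list of 145 symbols that are not members, of which 121 were in the table and 83 passed the filter. Called higher were 19 and called lower 8, again beside 18.3% and 15.8% of all genes. Of 17 interferon genes listed, only Ifnz was in the table, with at most 0.0435 in any sample, so the ligands could not be compared here. Of 11 tested genes between receptor and nucleus, 4 were called higher, among them Ptpn2, Ptpn6 and Pias1, and Jak1 and Socs3 were called lower. Jak1, named after its values were seen, had 119.6, 90.5, 82.8 and 68.7 in WT and 57.8, 44.9 and 56.6 in Ngfr KO (log2 change -0.74 with SE 0.23, limma adjusted p = 0.0278). edgeR did not call Jak1 (adjusted p = 0.0539).

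The largest change among the called genes of that list was in Cxcl9, a chemokine induced by interferon gamma, with 0.580, 0.947, 5.89 and 2.26 in WT and 37.2, 3.21 and 17.4 in Ngfr KO. WT replicate 3 exceeded Ngfr KO replicate 2 (log2 change 2.32 with SE 0.63, limma adjusted p = 0.0154). Next were Ifi30, a lysosomal thiol reductase, with a log2 change of 1.91, Lgals3bp with 1.47, Ifi205 with 1.38 and Plscr1, a phospholipid scramblase, with 1.29. Lower were the GTPase-like gene 9930111J21Rik2 (-1.22) and Ifi27l2a (-1.15), which edgeR did not call (adjusted p = 0.0991). The limma adjusted p of these 6 genes ran from 0.000511 (Ifi30 and Ifi205) to 0.0267 (Ifi27l2a). Tgtp1, a GTPase gene of that list, had 13.0, 9.43, 21.3 and 18.5 in WT and 59.5, 18.2 and 36.4 in Ngfr KO (log2 change 1.15 with SE 0.35, limma adjusted p = 0.0265), in the same order of Ngfr KO samples as Igtp. Its near copy Tgtp2 may share its reads and was not called (limma adjusted p = 0.106). Of 30 tested antiviral effectors outside the members, 4 were called higher and 4 lower, and of 12 sensors and adaptors 4 were called higher. Beside these, 18.3% of all genes tested were called higher and 15.8% lower.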

How the data were processed

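RNA from sorted FDCs was amplified with SMART-Seq v4 and made into Nextera XT libraries, per the labels' protocols. The authors deposited 1 table of TMM-normalised signal per gene (per the file name), with 1 column per sample; bcl2fastq 2.20.0.422 and the build mm10 are named in the submitters' processing notes. The aligner, counter and annotation are not given in the sources used here. Within 0.01 steps, 100% of each sample's values fell on a grid of equal steps worth 1 read, so the reads could be recovered. Positions and merged exon lengths came from GENCODE M21 (GRCm38), which matched 21137 of 21176 identifiers.

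The comparison used limma 3.58.1 in R 4.3.3 (eBayes with trend) on log2(value + 1), 4 WT against 3 Ngfr KO, without covariates, keeping genes that reached 1 in 3 or more samples. Fold changes of low genes are understated by the pseudocount of 1. Alternatives were a pseudocount of 0.1, no filter, median ratio scaling, the replicate number as a block, each replicate left out, and edgeR 4.0.16 (quasi-likelihood, filterByExpr) on the recovered reads. The fits were also run on simulated reads with the same dispersion for every gene and sample. That setting differs from the unequal spread described here, so the run does not show how the fits behave under it. The members and lists were chosen with earlier results of these data known. Given sample by sample were called members, the receptors and the 2 most abundant of each role. So were the 8 members with the largest SD in Ngfr KO. Of the other pathway genes, the 8 called ones with the largest change were named, most of them by log2 change only. Others were chosen after their values were seen. Nothing says that the samples of a group came from separate cohorts, so p-values measure the spread between these pools. Reads are not molecules, so read numbers cover counting error only. One result of the pathway list is not reported here.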

Additional observations from a re-analysis of the deposited data

Results flagged for a closer look

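For each of the 44 members, WT samples were compared on the log2(value + 1) scale. The distance from the most extreme of the 4 WT samples to the next one was divided by the whole WT range. It passed Dixon's critical value in 4 members, where chance gives about 1 in 20 groups, or 2.2 of 44. In Irf1 WT replicate 3 was far above the others, and the gap took 0.885 of the range. In Irgm1 WT replicate 3 was again far above, with 0.926 of the range. In Oas1a the same replicate was far below, with a value of 0.143 against 0.529 to 0.618. The gap on the log2(value + 1) scale was 0.838 of the range. In Gbp2 WT replicate 1 was far above, with 0.897 of the range.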

How the results depend on the processing

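Ifngr1 and Usp18 were called under each of the 12 alternatives, and the 6 called members kept their direction in all of them. Of the members, 5 were called higher and 1 lower, beside 18.3% and 15.8% of all genes tested. Without a filter these counts were 2 and 0, beside 5.31% and 4.73% of all genes. Of the other pathway genes, 13 in place of 19 were then called higher and 5 in place of 8 lower. Leaving out 1 library each gave 3 to 7 members higher and 0 to 4 lower, and 9 to 19 other pathway genes higher and 2 to 8 lower. In those fits 1614 to 3006 of all genes were called, against 2844. Of all genes tested, 10.3% to 20.8% were called higher and 9.69% to 17.1% lower. Members called lower were 2 without WT replicate 3 (beside 16.2% of all genes tested) and 3 without WT replicate 4 (14.9%). They were 4 without Ngfr KO replicate 1 (11.1%), 0 without Ngfr KO replicate 2 (9.69%) and 3 without Ngfr KO replicate 3 (17.1%). edgeR called 5 other pathway genes lower, beside 6.55% of all genes it tested. The cause of these shifts was not tested, beyond the smaller number of samples.

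The labels do not say that same-numbered samples share animals or a preparation. Deviations of same-numbered samples had correlations of 0.30, -0.06 and -0.01 for numbers 1 to 3. The correlation for number 1 was the highest of all pairs of a WT and an Ngfr KO sample, ahead of 0.11. Whether same-numbered samples were prepared together cannot be told from such correlations. With the replicate block, WT replicate 4 has no partner and does not bear on the change. Under that block 6 members were called lower and 5 higher, beside 15.4% and 17.2% of all genes tested. Of all genes 2717 were called, and 12 other pathway genes were called lower. Not every sample correlated best with its own number.

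Directions that turned belonged to members that were not called. Irf1 turned to -0.0065 with the replicate block and -0.0512 in edgeR, Irf9 to 0.0393 with median ratio scaling and 0.0485 in edgeR, Zbp1 to -0.065 with a pseudocount of 0.1 and Iigp1 to -0.0202 with the replicate block. Leaving out 1 library each gave log2 changes of -0.0065 to 0.72 for Irf1, -0.15 to 0.14 for Irf9, -0.43 to 0.60 for Zbp1, -0.28 to 0.39 for Gbp2, -0.24 to 0.76 for Iigp1 and -0.82 to 0.0518 for Rtp4. Median ratio scaling moved the median of all genes from 0.02 to 0.07. Ngfr was lower in all 12 alternatives and called in 1. Depth limits Oas2, Oas3 and Rsad2, each with samples of 5 or fewer reads.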
